A study of Mus musculus with 49 samples.

Results

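The genes described here encode the machinery by which blood cells present antigen on MHC class II molecules: the invariant chain Cd74, the class II chains H2-Aa, H2-Eb1, H2-DMa, H2-Oa and H2-Ob, and the costimulatory ligand Cd86. They were taken by gene name alone from a nylon-filter array of mouse cDNA clones, and made up 7 of the 5770 genes, 12 of the 7739 clones and 13 of the 7771 clone spots. H2-Ab1, H2-Ea, H2-DMb1 and H2-DMb2, which the same name rule covers, were not analysed here. Where a gene had more than 1 clone (3 for Cd74, 3 for Cd86 and 2 for H2-Oa), its brightest clone was used and the others were set beside it. Cd74 (gene ID 16149) lies outside the MHC on chromosome 18 at 60803849 to 60812652, and Cd86 (gene ID 12524) on chromosome 16 at 36568956 to 36666158, in the mouse build GRCm38.p6.

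The samples were RNA from the peripheral blood mononuclear cells of 37 female wild-type C57Bl/6J mice aged 7 weeks, each measured on 1 array or, for 12 mice, on 2 arrays, for 49 arrays in all. In the OA group, 26 mice received 20 µl of oleic acid into a tail vein. Oleic acid given into the blood of rodents is a long-used model of acute lung injury. The 26 OA mice were sampled at 1 h (4 mice), 1.5 h (6 mice), 3 h (4 mice), 4 h (4 mice), 18 h (4 mice) and 24 h (4 mice). The serum group, 11 mice given physiological serum in place of the fatty acid, was sampled at the same 6 times, with 1 mouse at 1.5 h and 2 mice at each other time. Mice of both groups had been anaesthetised with xylazine and ketamine, and no uninjected mouse was analysed, so what both groups share cannot be told apart from anaesthesia and injection. The series text counts 39 mice, and 1 further serum mouse at 1.5 h and 1 further OA mouse at 3 h were not analysed here.

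Class II molecules are pairs of an alpha and a beta chain that hold peptides on the surface of B cells, monocytes, macrophages and dendritic cells, where CD4 T cells read them. Cd74 holds new class II pairs ready and guides them to endosomes, H2-DM exchanges the last piece of Cd74 for a peptide, and H2-O, found mainly in B cells, restrains H2-DM. Most of these genes are switched on together by the coactivator CIITA, which sits on the RFX and NF-Y factors bound at short promoter elements called the X and Y boxes. In C57BL/6 mice the alpha chain gene of I-E, H2-Ea, is defective, so H2-Eb1 RNA is made without I-E reaching the cell surface.

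The 5 class II chain genes lie together in the MHC on mouse chromosome 17, in build GRCm38.p6: H2-Oa (gene ID 15001) at 34092379 to 34095234, H2-DMa (14998) at 34119693 to 34139101, H2-Ob (15002) at 34238905 to 34245908, H2-Aa (14960) at 34282744 to 34287823, and H2-Eb1 (14969) at 34305867 to 34316674. Promoter windows from RefSeq, on GRCm38.p6, were at hand for H2-Aa, H2-Eb1, H2-DMa, H2-Oa and H2-Ob. They are shown for the 4 genes in which both of a pair of short motifs stood near each other, because class II promoters are known for such a pair of elements. Each sequence runs 5′ to 3′ on the gene's own strand from 100 to 31 bases before the listed start, and the capitals mark GCAAC and GATTGG, motifs chosen after these sequences had been read.
H2-Aa (chr17:34287854-34287923, minus strand): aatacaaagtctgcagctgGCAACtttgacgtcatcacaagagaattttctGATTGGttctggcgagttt
H2-Eb1 (chr17:34305767-34305836, plus strand): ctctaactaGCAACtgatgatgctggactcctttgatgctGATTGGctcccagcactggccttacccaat
H2-Oa (chr17:34092279-34092348, plus strand): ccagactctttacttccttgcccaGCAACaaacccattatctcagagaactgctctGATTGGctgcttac
H2-Ob (chr17:34238805-34238874, plus strand): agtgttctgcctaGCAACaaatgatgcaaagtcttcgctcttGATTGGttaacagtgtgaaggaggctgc
Between the motifs stood 27 bases in H2-Aa, 26 in H2-Eb1, 27 in H2-Oa and 24 in H2-Ob. Scanned on both strands, 35.2% of 32851 listed promoters of 300 bases held GCAAC and 16.1% held GATTGG. Both in this order on 1 strand, 20 to 30 bases apart, were held by 67 promoters, or 0.204%. Neither of the 2 windows listed for H2-DMa held the pair. These matches describe the letters in the windows only.

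Values are log2 of the quantile-normalised spot signal, 1 per mouse, and a level is compared only between mice for the same clone, because clones differ in length and in how strongly they bind. A clone counted as above background when its signal passed the limit set by the 1478 empty spots of its array. Cd74, H2-Aa, H2-Eb1 and the brightest H2-Oa clone were above it on all 49 arrays, H2-DMa on 42, H2-Ob on 37 and Cd86 on 4. In bulk RNA, fewer cells of a type and less RNA per cell cannot be told apart. The B cell genes Ms4a1 and Cd79b and the T cell gene Cd3e were above background on 49 arrays and the monocyte gene Csf1r on 48, whereas Cd14 was above it on 0 and Itgax on 2. The surfactant gene Sftpd, of lung epithelium, was above background on 1 of 49 arrays. Between arrays, 41.8 to 57.9% of clone spots were above background and the median clone signal ran from 83 to 364 units, against a highest recorded signal of 21815 units.

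Of the 37 mice, 7 stood apart from the other 30, and fits without these 7 were added after seeing the data. On the main axis of variation over all other clones, which held 36.1% of the variance, they scored 38.0 to 70.4, against -18.9 to 6.5 in the 30. They were OA 4 h mice 2 and 3, OA 3 h mouse 7, OA 18 h mouse 2, serum 4 h mice 1 and 4 and serum 18 h mouse 1. On their arrays 41.8 to 49.2% of clone spots were above background, against 46.3 to 57.9% in the 30. Since both serum 4 h mice are among them, no serum value at 4 h can be given without them.

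The class II genes differed widely in how far these 7 mice lay from the others, which is given as a description with no test. H2-Eb1 was at 7.86 to 9.75 in the 7 mice, against 10.65 to 12.77 in the 30, with no overlap. H2-DMa was at 6.06 to 7.71, against 8.03 to 9.57, again with no overlap, but it was above background on only 2 of the 9 arrays of the 7 mice. The 7 were picked by their scores on an axis of the other clones, and the share of all clones without overlap was not counted. For Cd74, at 9.19 to 11.87 against 10.96 to 13.32, 4 of the 7 lay below all 30. H2-Aa ran from 9.10 to 10.00 in the 7, against 9.18 to 11.91, so that 1 of them lay below all 30. The H2-O chains overlapped throughout: H2-Oa was at 7.87 to 8.35, against 7.84 to 9.01, and H2-Ob at 7.11 to 8.78, against 7.06 to 9.20. The part of this axis in the results that follow was not tested, and the main results are also given without these mice where a fit remained.

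**Figure D1:**
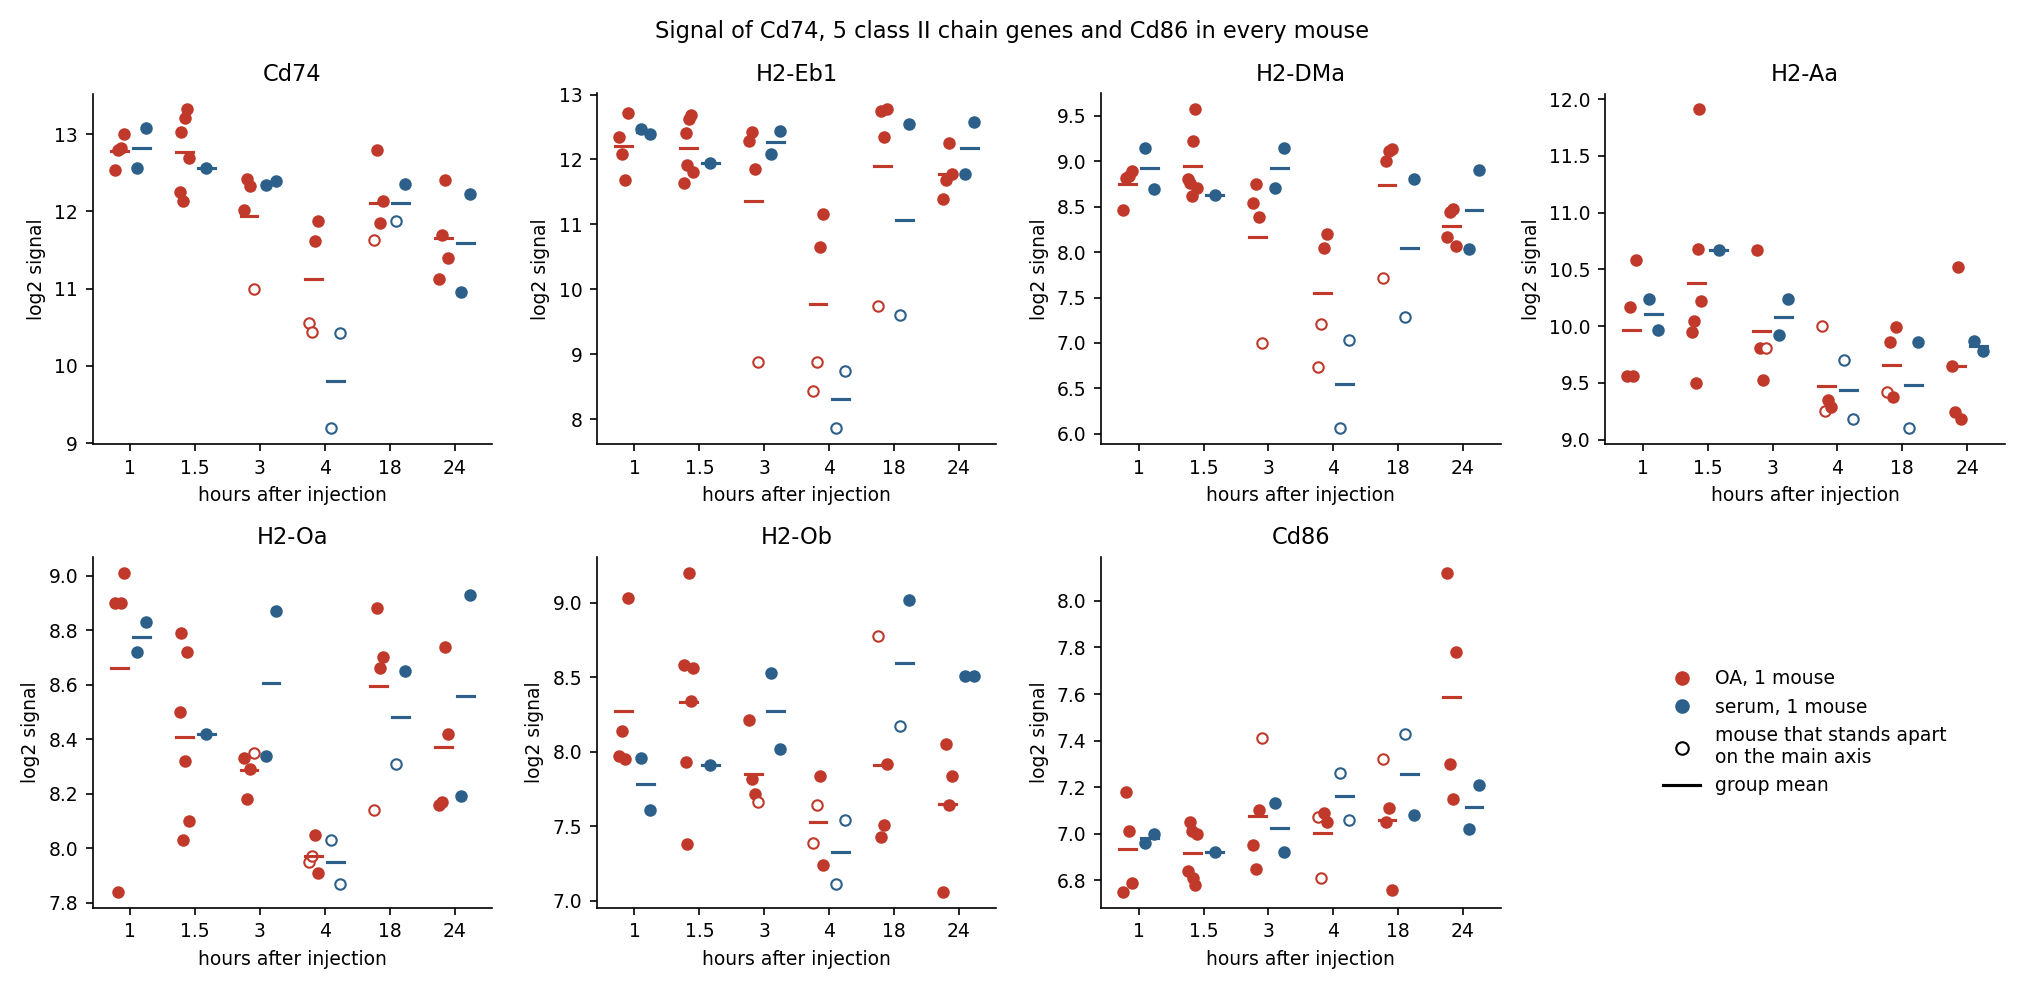
Each panel plots 1 gene's brightest clone as log2 normalised signal (vertical axis) in every mouse against time after injection (horizontal axis, 6 times), with OA mice in red left of serum mice in blue. Lines mark group means and hollow points the 7 mice that stand apart. At 4 h the H2-Eb1 points, 8.43 to 11.16 in OA mice and 7.86 and 8.75 in serum mice, sit below nearly every other mouse, while the H2-Aa points, 9.25 to 10.00 and 9.18 to 9.70, lie among the rest.

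Across the 12 groups, the OA and serum mice of 4 h held the lowest means for 6 of the 7 genes. Cd74 averaged 11.12 at 4 h in OA mice and 9.80 in serum mice, with serum mice of 24 h next at 11.59, and of the steps between neighbours only that between these OA and serum mice exceeded the pooled SD between mice of 0.56. The highest Cd74 means, 12.82, 12.79 and 12.77, in serum 1 h, OA 1 h and OA 1.5 h mice, did not differ beyond that spread. H2-Eb1 averaged 9.78 at 4 h in OA mice and 8.30 in serum mice, and the next group, serum 18 h at 11.08, lay above both by more than the pooled SD of 1.04, as did the OA mean above the serum mean. H2-DMa averaged 7.55 in OA and 6.54 in serum mice of 4 h, against a pooled SD of 0.56. For H2-Aa the same 2 groups were lowest, at 9.47 and 9.44, but no neighbours in its order differed by more than the pooled SD of 0.54. H2-Ob had its highest mean in serum 18 h mice, 8.59, and Cd86 in OA 24 h mice, 7.59.

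The first comparison set the OA mice of 4 h against the OA mice of the other 5 times. H2-Eb1, Cd74 and H2-DMa fell. H2-Oa, H2-Ob and H2-Aa were lower by 0.45 to 0.50 and did not pass the test, and Cd86 was not above background on any array of the 4 h mice. Of all clones, 11.8% were called in this contrast, and 6.28% were called lower, against 3 of these 7 genes.

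H2-Eb1, the beta chain of I-E, had levels of 8.43, 8.88, 10.65 and 11.16 in OA 4 h mice 2, 3, 5 and 6, against a lowest, median and highest level of 8.88, 12.16 and 12.77 in the 22 other OA mice. All 4 mice were below 20 of the 22 others, and the groups overlapped through OA 3 h mouse 7 at 8.88 and OA 18 h mouse 2 at 9.75, both among the 7 that stand apart. The difference was -2.11 on the log2 scale (SE 0.53, 4.30-fold lower, limma adjusted p = 0.0142). Without the 7 mice the levels of OA 4 h mice 5 and 6 lay below all 20 others, which ran from 11.39 to 12.77. The difference was then -1.29 (SE 0.27, adjusted p = 0.00534), so H2-Eb1 fell in both fits. Leaving out the 7 mice did not make the groups alike on the main axis of variation, however. OA 4 h mice 5 and 6 scored 6.54 and 5.93 on it, above every other mouse kept. The next highest of the mice kept was OA 24 h mouse 2, at -7.97. The part of this axis in the remaining difference was not tested.

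Cd74 was at 10.55, 10.44, 11.62 and 11.88 in OA 4 h mice 2, 3, 5 and 6, against 11, 12.37 and 13.32 as the lowest, median and highest in the 22 other OA mice. The 2 mice that stand apart were below every other OA mouse, and the other 2 lay in the lower range of the rest. Cd74 fell by 1.13 on the log2 scale (SE 0.29, 2.19-fold, adjusted p = 0.0151). Its other clones differed by -0.89 (adjusted p = 0.032) and -0.90 (adjusted p = 0.0574), so that 2 of its 3 clones passed the test. Without the 7 mice the difference was -0.59 (adjusted p = 0.312).

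H2-DMa, the alpha chain of H2-DM, was at 6.74, 7.21, 8.05 and 8.20 in OA 4 h mice 2, 3, 5 and 6, and was above background on 3 of their 5 arrays, those of mice 5 and 6. The other OA mice had a lowest, median and highest level of 7.00, 8.73 and 9.57. H2-DMa fell by 1.03 (SE 0.29, 2.04-fold from the measured signals of all 4 mice, adjusted p = 0.0253), and differed by -0.60 (adjusted p = 0.106) without the 7 mice. The calls of Cd74, H2-DMa and H2-Eb1 in all mice each ended when OA 4 h mouse 2 or OA 4 h mouse 3 was left out, with differences as small as -0.90, -0.76 and -1.65. They also ended without the 1.5 h mice (-1, -0.94 and -2.03, adjusted p = 0.0595, 0.0814 and 0.0514), those of Cd74 and H2-DMa without the 1 h mice (adjusted p = 0.0572 and 0.0598), and that of H2-DMa without spots of quality score 0 (-0.52, adjusted p = 0.209).

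H2-Oa, the alpha chain of H2-O, lay in a narrow band at 4 h: 7.95, 7.97, 8.05 and 7.91 in OA 4 h mice 2, 3, 5 and 6, and 7.87 and 8.03 in the serum 4 h mice. Of the 31 mice of other times, 29 were above all 6 of these, the exceptions being OA 1 h mouse 3 at 7.84 and OA 1.5 h mouse 5 at 8.03. The band held both mice that stand apart and mice that do not. The second H2-Oa clone was at 7.89 to 8.03 in the OA 4 h mice, but at 8.32 and 7.74 in serum 4 h mice 1 and 4, with no such band, and differed by -0.26 in OA mice (adjusted p = 0.176) and -0.23 in serum mice (adjusted p = 0.368). In the OA mice the difference was -0.50 (SE 0.17, adjusted p = 0.053), and -0.52 (adjusted p = 0.238) without the 7 mice. It passed in 4 other settings, with adjusted p-values of 0.0289 with array weights, 0.0327 without spots of quality score 0, 0.0476 without dim clones and 0.0485 with the mouse as a random block.

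H2-Ob, the beta chain of H2-O, was at 7.39, 7.64, 7.84 and 7.24 in OA 4 h mice 2, 3, 5 and 6, against 7.06, 7.94 and 9.20 as the lowest, median and highest in the other OA mice. The difference of -0.47 did not pass the test (adjusted p = 0.203), nor did -0.41 without the 7 mice (adjusted p = 0.52). H2-Aa, the alpha chain of I-A, was at 10.00, 9.25, 9.35 and 9.29 in the same mice, against 9.18, 9.84 and 11.91. Its difference of -0.45 did not pass either (adjusted p = 0.294), nor did -0.63 without the 7 mice (adjusted p = 0.419). H2-Aa was also the least repeatable of the clones, with a median difference of 0.55 between the 2 arrays of a mouse, against 0.18 for H2-Eb1 and 0.25 for Cd74.

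The serum mice, which had received no oleic acid, showed the same 3 genes low at 4 h. H2-Eb1 was at 7.86 and 8.75 in serum 4 h mice 1 and 4, against 9.61, 12.39 and 12.57 as the lowest, median and highest in the 9 other serum mice. It fell by 3.67 (SE 0.77, 12.7-fold, adjusted p = 0.00506). Cd74 was at 9.19 and 10.42, against 10.96, 12.36 and 13.08, and fell by 2.49 (SE 0.42, 5.60-fold, adjusted p = 0.00275), with its other clones at -2.68 and -2.23. In neither gene did the 2 groups overlap, but the share of all clones without overlap between so few mice was not counted. Of all clones, 22.5% were called in this contrast and 11% were called lower, against 3 of these 7 genes.

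H2-DMa was at 6.06 and 7.03 in serum 4 h mice 1 and 4, above background on 0 of 3 arrays, against 7.29, 8.71 and 9.15 in the other serum mice. Its level at 4 h was therefore at least 1.74-fold lower, taken against the lowest signal still above background on those arrays (adjusted p = 0.00483 from the measured values). H2-Ob, at 7.11 and 7.54 and above background on 0 of 3 arrays, was at least 1.33-fold lower on the same bound, with an adjusted p of 0.0677. H2-Oa, at 8.03 and 7.87 in the serum 4 h mice against 8.19 to 8.93 in the others, differed by -0.62 (adjusted p = 0.067). H2-Aa, at 9.70 and 9.18 against 9.10 to 10.67, differed by -0.59 (adjusted p = 0.297). Leaving out serum 4 h mouse 1 ended the calls of Cd74 (-1.87, adjusted p = 0.242), H2-Eb1 (-3.22, adjusted p = 0.254) and H2-DMa (adjusted p = 0.254), in a fit where the lone serum 4 h mouse is assumed to vary like the other groups.

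**Figure D2:**
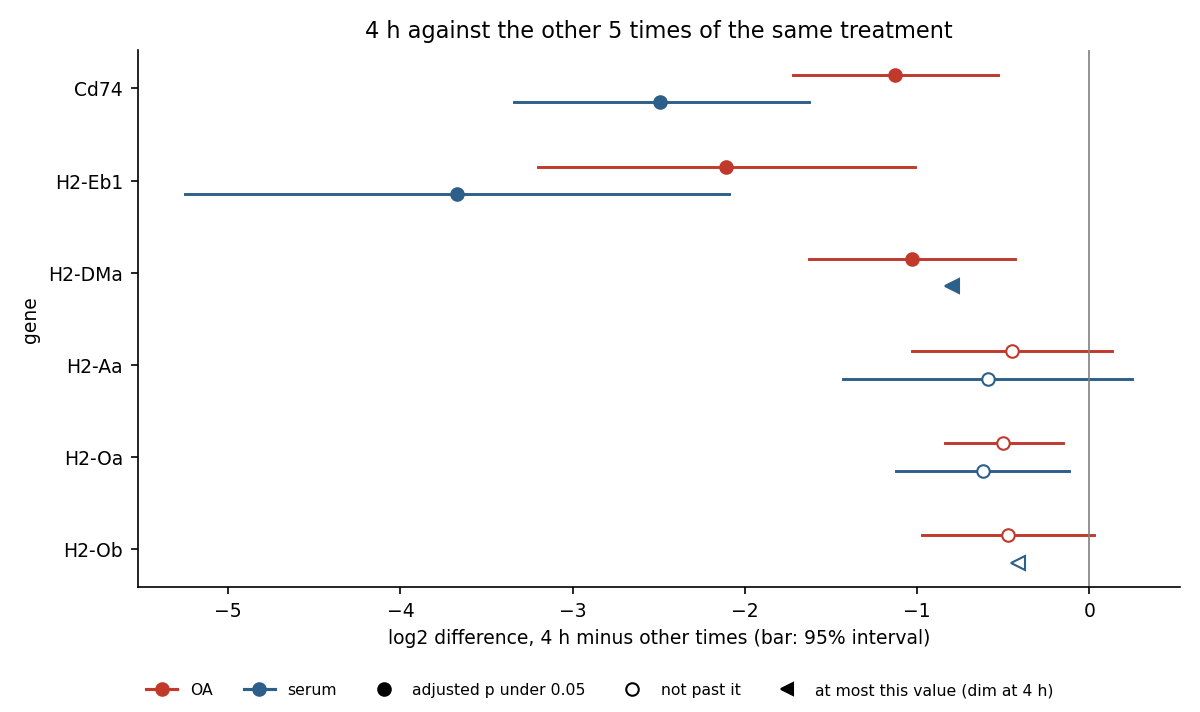
The level at 4 h minus the mean of the other times (horizontal axis, log2 difference with 95% intervals) is plotted for 6 genes, OA above serum. Filled points passed an adjusted p of 0.05, and triangles mark serum differences that are bounds because the clone was not above background. H2-Eb1 lies farthest left, at -2.11 in OA mice and -3.67 in serum mice, and H2-Aa at -0.45 and -0.59.

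Set directly against each other at 4 h, the OA and serum mice gave no call for any of the 7 genes by limma, which called 4 clones of all, or 0.0517%, with 1006 under an unadjusted p of 0.05. Cd74 was at 10.55, 10.44, 11.62 and 11.88 in the OA mice, against 9.19 and 10.42 in the serum mice, with the lowest OA mouse level with the higher serum mouse and the others above both. The difference of 1.32 (SE 0.46, 95% interval 0.37 to 2.26) had an adjusted p of 0.269, and its other clones differed by 1.13 and 1.69. For H2-Eb1, at 8.43 to 11.16 in the OA mice against 7.86 and 8.75, the difference was 1.47 (interval -0.27 to 3.21, adjusted p = 0.459). Without serum 4 h mouse 4 the Cd74 difference was 1.94 (adjusted p = 0.0322), with 764 clones called in all, and without serum 4 h mouse 1 it was 0.70 (adjusted p = 1). Each of these fits leaves 1 serum mouse at 4 h, which is assumed to vary like the mice of the other groups. The change of the 4 h difference with treatment was 1.36 for Cd74 (interval 0.31 to 2.40, adjusted p = 0.368) and 1.56 for H2-Eb1 (interval -0.35 to 3.48, adjusted p = 0.558), in a test that called 0.0258% of clones.

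At the other 5 times none of the 7 genes was called between OA and serum mice (at 1.5 h against 1 serum mouse, assumed to vary like the other groups), where limma called 0% of clones at 1, 3 and 18 h (103, 260 and 95 under an unadjusted p of 0.05) and 0.0129% at 1.5 h and at 24 h. Over all 6 times OA minus serum was 0.19 for Cd74 (SE 0.20, interval -0.22 to 0.59), 0.17 for H2-Eb1 (interval -0.57 to 0.91) and -0.09 for H2-Aa (interval -0.48 to 0.31). Limma called 0% of clones over all times, with 266 of 7739 under an unadjusted p of 0.05. At 24 h, H2-Ob was at 7.06, 7.64, 7.84 and 8.05 in OA mice, against 8.51 in both serum mice, with no overlap. How many of all clones separated these few mice was not counted. At 18 h it was at 7.43, 7.51, 7.92 and 8.78 in OA mice, against 8.17 and 9.02, and there the groups overlapped.

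The second comparison set late mice, of 18 and 24 h, against early mice, of 1 and 1.5 h. In OA mice Cd74 fell and the Cd86 clone rose above background in some late mice, while none of the 5 class II chains passed the test. Of all clones, 8.23% were called, 4.35% higher and 3.88% lower, against 2 of these 7 genes.

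Cd74 was at 11.63, 12.80, 11.85 and 12.13 in OA 18 h mice 2, 3, 5 and 6 and at 11.12, 11.69, 12.40 and 11.39 in OA 24 h mice 2, 3, 5 and 6. The 10 early OA mice had a lowest, median and highest level of 12.13, 12.80 and 13.32. The groups overlapped, with 5 of the 8 late mice below all early ones. Cd74 fell by 0.90 (SE 0.26, 1.87-fold, adjusted p = 0.0265), and its other clones by 0.83 (adjusted p = 0.0282) and 0.93 (adjusted p = 0.0337). Without the 7 mice it fell by 0.82 (adjusted p = 0.0127). The call ended without the 24 h mice (-0.68, adjusted p = 0.412), without the 1 h or the 1.5 h mice (adjusted p = 0.064 and 0.245), or without any 1 of OA 1 h mice 5 and 6, OA 18 h mice 2 and 5 and OA 24 h mice 2 and 6 (adjusted p up to 0.0738).

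In serum mice Cd74 was at 11.87 and 12.36 at 18 h and 10.96 and 12.22 at 24 h, against 12.56, 12.56 and 13.08 in the early mice. The late and early serum mice did not overlap, and the difference of -0.83 (SE 0.42, -0.71 without the 7 mice) had an adjusted p of 0.585, in a contrast that called 0.0258% of clones. The late minus early difference of OA mice minus that of serum mice was -0.07 (SE 0.49, interval -1.08 to 0.94), and this test called 0% of clones, with 117 under an unadjusted p of 0.05. H2-Aa, too, was lower in all 4 late serum mice, at 9.10 to 9.87, than in the early ones, at 9.97 to 10.67. Its difference was -0.74 (limma adjusted p = 0.628), and -0.54 without the 7 mice. For neither gene was the share of all clones that separate these few mice counted.

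The class II chains were less uniform. H2-Aa, at 9.18, 9.54 and 10.52 as the lowest, median and highest in late OA mice against 9.50, 10.11 and 11.91 in early ones, differed by -0.52 (adjusted p = 0.177), and by -0.48 without the 7 mice (adjusted p = 0.215). H2-DMa differed by -0.34 (SE 0.26, adjusted p = 0.418). It was at 8.07 to 8.47 in the 24 h OA mice, below 9 of the 10 early mice. At 18 h it was at 9 to 9.13 in 3 of the 4 mice and at 7.71 in mouse 2, which stands apart. The OA means of 18 and 24 h, 8.74 and 8.29, did not differ by more than the pooled SD of 0.56. H2-Eb1, at 9.75, 12.01 and 12.77 against 11.64, 12.21 and 12.71, differed by -0.36 (SE 0.47), and by 0.00 without the 7 mice. H2-Oa differed by -0.05 (interval -0.36 to 0.26).

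H2-Ob was at 7.06, 7.74 and 8.78 in late OA mice, against 7.38, 8.24 and 9.20 in early OA mice, and at 8.17, 8.51, 8.51 and 9.02 in late serum mice, against 7.61, 7.91 and 7.96 in early serum mice. All 4 late serum mice were above all 3 early ones, whereas the OA groups overlapped. The share of all clones that separate so few mice was not counted. The OA difference was -0.52 (adjusted p = 0.12) and the serum difference 0.70 (SE 0.36, adjusted p = 0.585). The test of the difference between treatments gave -1.22 (SE 0.42, interval -2.08 to -0.37), with an unadjusted p of 0.00647 and an adjusted p of 1. The OA difference passed without the 7 mice (-0.67, adjusted p = 0.0354), of which leaving out OA 18 h mouse 2 alone gave an adjusted p of 0.0461, and with array weights (-0.68, adjusted p = 0.0192).

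Cd86, a ligand for the T cell receptors CD28 and CTLA-4, was above background only on the 4 arrays of OA 24 h mice 2 and 6, whose levels were 8.12 and 7.78. The other OA 24 h mice were at 7.30 and 7.15, not above background, and early OA mice at 6.75 to 7.18, above background on 0 of 13 arrays. The test called it higher late (adjusted p = 0.028), from signals mostly not above background, with 4 of 11 late arrays above it. No fold is given, because the early level is only a bound. The late mean of 7.32 lay under that bound of 7.43, so no least rise can be stated either. The other 2 Cd86 clones were above background on 0 of 49 arrays and did not pass (adjusted p = 0.517 and 0.934). The call ended without the 24 h mice (adjusted p = 0.715), without the 1 h or the 1.5 h mice (adjusted p = 0.0534 and 0.308), and without any 1 of the same 6 OA mice as for Cd74 (adjusted p up to 0.087).

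**Figure D3:**
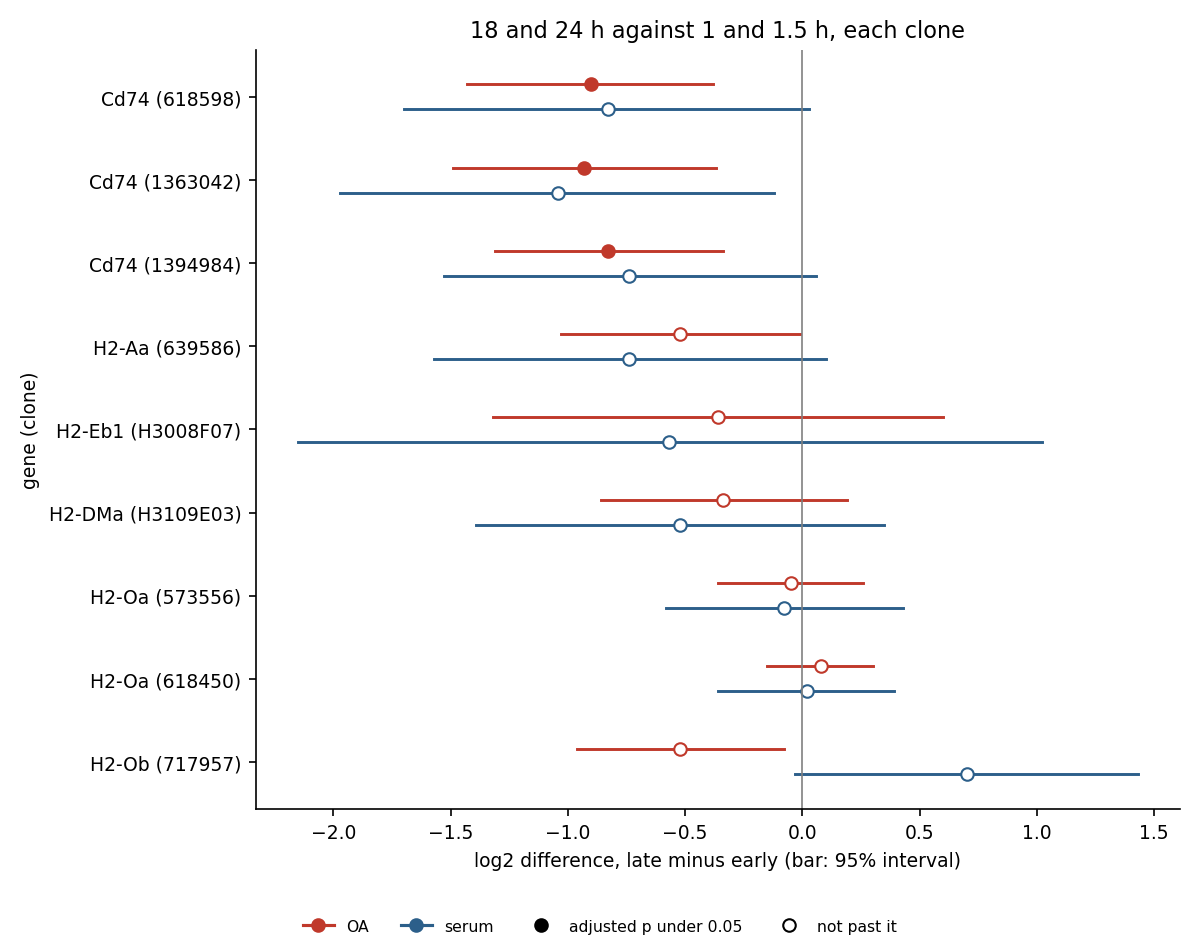
The late level, of 18 and 24 h, minus the early level, of 1 and 1.5 h, is plotted per clone (horizontal axis, log2 difference with 95% intervals), OA above serum; Cd86 is left out. The 3 Cd74 clones lie together in OA mice, at -0.83 to -0.93, and H2-Ob is at -0.52 in OA mice and 0.70 in serum mice.

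Among the 6 OA times, an F test across all clones called Cd74 (adjusted p = 0.0117) and Cd86 (adjusted p = 0.0365), in a test that called 12.1% of clones. H2-DMa (adjusted p = 0.0517) and H2-Eb1 (adjusted p = 0.0682) did not pass. Whether the OA effect changed among the times gave an adjusted p of 1 for all 7 genes and called 0% of clones, with 252 under an unadjusted p of 0.05.

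The genes were then set against each other mouse by mouse, separately in the 30 mice and in the 7, for 15 pairs of 6 genes with Cd86 left out. The permutations shuffled mice across times and treatments, so their p-values also take in differences that 2 genes share between groups. No p was computed for r within groups. In the 30, H2-Eb1 and H2-DMa went together most closely, with Pearson r = 0.75 and Spearman rho = 0.76 (permutation p = 1e-05, the smallest that 100000 permutations can give, adjusted 7.5e-05). Without the 2 mice farthest from the median r was 0.70, and within groups 0.63. Cd74 and H2-DMa had r = 0.71 and rho = 0.61 (permutation p = 1e-05, adjusted 7.5e-05), 0.63 without 2 mice and 0.62 within groups. H2-Eb1 and H2-Oa had r = 0.65 and rho = 0.61 (permutation p = 5e-05, adjusted 0.00025), 0.58 without 2 mice and 0.50 within groups. H2-Ob passed with H2-Aa alone (r = 0.43, rho = 0.48, adjusted permutation p = 0.0281, 0.39 without 2 mice), and had r = 0.16 and rho = 0.16 with its partner chain H2-Oa (adjusted permutation p = 0.39).

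In the 7 mice, H2-Eb1 had r = 0.95 and rho = 0.94 with H2-DMa (exact permutation p = 0.000794, adjusted 0.00893) and r = 0.95 and rho = 0.83 with Cd74 (exact permutation p = 0.00516, adjusted 0.0258). Without 2 mice these were 0.86 and 0.87. H2-Ob passed with the same 3 genes there, with r = 0.94 and rho = 0.99 with H2-Eb1 (exact permutation p = 0.00119, adjusted 0.00893), r = 0.89 and rho = 0.89 with H2-DMa (exact permutation p = 0.00893, adjusted 0.0335) and r = 0.85 and rho = 0.86 with Cd74 (exact permutation p = 0.0185, adjusted 0.0462). Without 2 mice these were 1, 0.82 and 0.91. In the 7 mice H2-Ob was above background on 4 of 9 arrays and H2-DMa on 2 of 9, so their correlations rest in part on signals at background. The 7 mice came from different groups, and no value within groups was computed for them. H2-Aa passed with none of the others there, with r = -0.55 and rho = -0.45 with H2-Eb1 (exact permutation p = 0.202) and r = -0.36 with Cd74 (exact permutation p = 0.427).

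**Figure D4:**
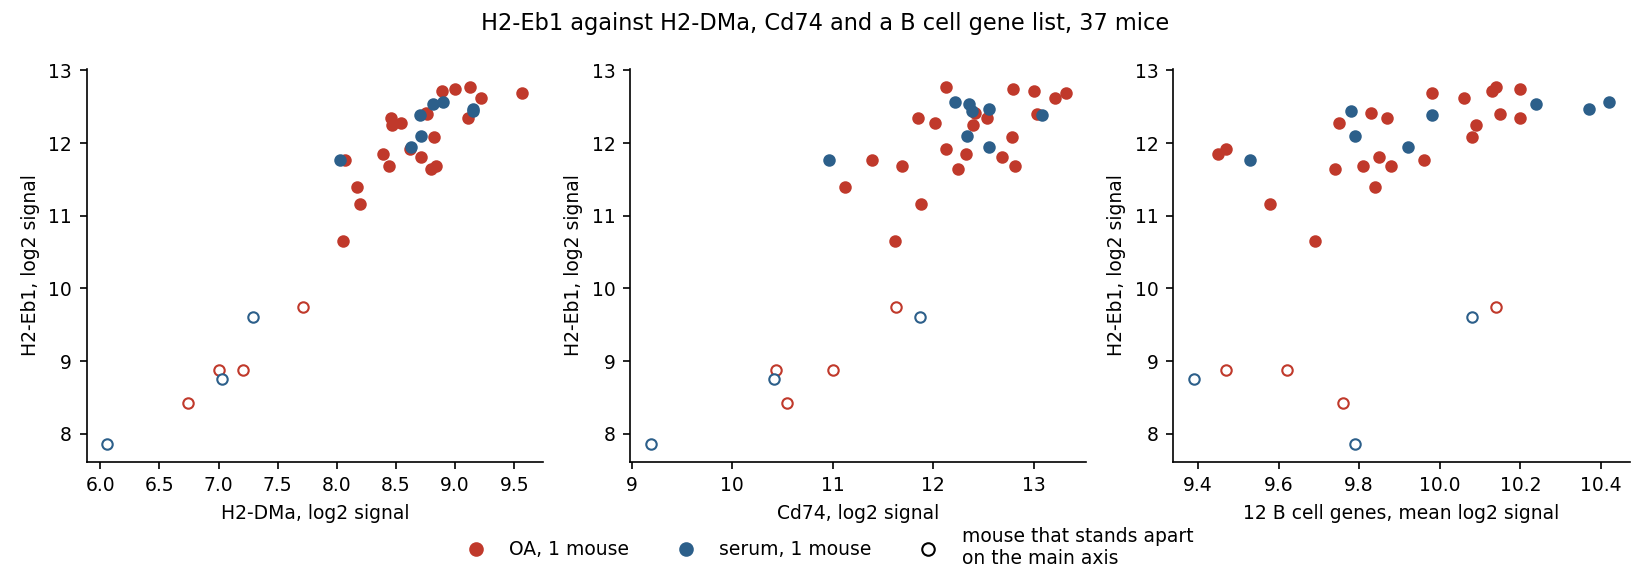
H2-Eb1 level (vertical axis) is plotted in 37 mice against H2-DMa, Cd74 and the mean of 12 B cell genes (horizontal axes). All axes are log2 normalised signal, with OA in red, serum in blue and the 7 mice that stand apart hollow. Hollow points lie at H2-Eb1 levels of 7.86 to 9.75, apart from the rest at 10.65 to 12.77.

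As a description over all 37 mice, with no test, each gene was set against the 3189 other genes above background on at least 25 arrays, all read from the same arrays. The 5 genes nearest to H2-Eb1 were Phb and Cyba (r = 0.96 each), Rps2 (0.96), H2-DMa (0.95) and Exosc5 (0.95), with r of 0.73, 0.69, 0.79, 0.75 and 0.72 among the 30 mice. Those nearest to H2-DMa were H2-Eb1 (0.95), Phb2 (0.95), Phb (0.94), Rps2 (0.94) and Rab24 (0.93). Cd74 lay nearest to Nckipsd (0.92), Slc2a4 (0.91), the B cell tetraspanin Cd37 (0.91), Psmb6 (0.88) and Prss12 (0.88). In its order H2-DMa held place 6, H2-Eb1 place 14 and H2-Aa place 663. The reverse was less close: Cd74 held place 181 in the order of H2-Eb1 and place 51 in that of H2-DMa. For H2-Aa the nearest, at up to 0.76, were Chchd3, Polr2m, Mlf1, Fam204a and Oas1c. Near H2-Oa were Il2rg at 0.71, Txndc5, Surf2 and Usp12. Map4k1 led for H2-Ob at 0.72, with Metap1 at 0.67, Pramel5, Casc3 and Mid1ip1 next. The prohibitin gene Phb and the ribosomal protein gene Rps2, which lie outside the class II pathway, stood as near to H2-Eb1 as H2-DMa did.

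Other genes of the class II route were read from a list of 24 names, of which 13 were measured. At 4 h in OA mice 3 of the 13 fell and 0 rose, with a median of -0.11 against 0.03 for all clones. Beside Cd74 they were the endosomal protease gene Ctsd (-1.15, adjusted p = 0.0243) and Ifi30, a reductase that opens disulfide bonds of antigens (-0.75, adjusted p = 0.00873, above background on 4 of 5 arrays). In serum mice 4 fell and 0 rose, with a median of -0.29 against 0.07: Cd74, Ctsd (-1.67, adjusted p = 0.0153), Ifi30 (-1.14, adjusted p = 0.00519) and the protease gene Ctsz (-1.89, adjusted p = 0.00288). Ifi30 and Ctsz were each above background on 1 of those 3 arrays, so their differences rest in part on signals at background. The promoter-factor genes Nfyc and Rfxap did not pass in either treatment. Late against early in OA mice, 1 rose, the protease gene Ctsb (0.92, adjusted p = 0.019), and 1 fell, Cd74, with a median of -0.12 against -0.01. The 5 measured class II chains had a median of -0.50 at 4 h in OA mice, -0.89 in serum mice and -0.36 late in OA mice. Over all clones, 11.8% were called at 4 h in OA mice, 22.5% in serum mice and 8.23% late in OA mice.

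Of 7 measured costimulation genes, 2 fell at 4 h in OA mice, Cd274 (-0.47, adjusted p = 0.0452) and Cd83 (-0.60, adjusted p = 0.0224, above background on 4 of 5 arrays), and 0 rose. At 4 h in serum mice 1 of the 7 fell and 0 rose. Late in OA mice 3 fell and 1, Cd86, was called higher, from signals mostly not above background. Those that fell were the inhibitory ligand gene Cd274 (-0.62, adjusted p = 0.00695), Cd83, a gene of activated dendritic cells and B cells (-0.64, adjusted p = 0.00759), and the inhibitory receptor gene Ctla4 (-0.67, adjusted p = 0.0225), above background on 1 of 11 late and 11 of 13 early arrays. Of 12 measured interferon gamma response genes, interferon gamma being an inducer of CIITA, 2 fell and 0 rose at 4 h in OA mice, Irf8 (-0.81, adjusted p = 0.00847, above background on 2 of 5 arrays) and Tgfb1 (-1.03, adjusted p = 0.0113, on 3 of 5). In serum mice of 4 h, 3 of the 12 fell and 2 rose. Of 11 measured class I presentation genes, 2 fell at 4 h in OA mice, the chaperone gene Calr (-1.52, adjusted p = 0.0277, above background on 4 of 5 arrays) and H2-K1, which was above background on 0 of 5 arrays, and 0 passed late. At 4 h in serum mice 4 of the 11 fell and 0 rose. The shares of all clones called were again 11.8% at 4 h in OA mice, 22.5% in serum mice and 8.23% late in OA mice.

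Markers of the cells that carry class II moved with some of these results and not with others. Of 16 measured B cell genes, 6 fell and 0 rose at 4 h in OA mice, with a median of -0.64 against 0.03 for all clones. They were Cd37 (-0.97, adjusted p = 0.00351), Ly6d (-1.24, adjusted p = 0.0148, above background on 4 of 5 arrays), Cd79b (-0.81, adjusted p = 0.0491), Cd72 (-0.62, adjusted p = 0.0237), and Blk and Fcer2a, which were above background on 0 of 5 arrays. The defining B cell gene Ms4a1 (-0.02, adjusted p = 0.966) did not pass. Over all clones, 6.28% were called lower in this contrast. Ms4a1 was at 9.36 to 10.95 in OA 4 h mice, against 9.06 to 11.13 in other OA mice. The log2 summed signal of the 12 B cell genes above background, in which the brightest genes weigh most, was 13.72 to 14.60 in OA 4 h mice, against 13.46 to 14.65 in other OA mice. It was 14.43 to 14.65 in serum 4 h mice, against 13.76 to 14.84 in other serum mice. The mean log2 signal of the same 12 genes was 9.47 to 9.76 in OA 4 h mice, against 9.45 to 10.2 in other OA mice. In serum 4 h mice this mean was 9.39 to 9.79, against 9.53 to 10.42 in other serum mice.

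In the serum 4 h mice 6 of the 16 B cell genes fell and 1 rose, with a median of -0.61 against 0.07. The monocyte gene Csf1r was at 7.70 to 8.73 in OA 4 h mice, against 7.37 to 8.59 in the other OA mice. Of 15 monocyte genes 1 fell at 4 h in OA mice, the lysosomal gene Psap (-1.61, adjusted p = 0.0187), and of 8 dendritic cell genes 3, the chemokine gene Ccl22 (-0.68, adjusted p = 0.043), and Bst2 and Itgax, which were above background on 0 of 5 arrays. In the same contrast 2 of 18 T cell genes rose, Cd2 (0.43, adjusted p = 0.021) and Lat (0.49, adjusted p = 0.0434), as did 1 of 9 NK and cytotoxic cell genes, Ncr1 (0.90, adjusted p = 0.0119), and 1 of 5 platelet genes, P2ry12 (1.76, adjusted p = 0.0249), while none of these lists had a gene that fell. In serum mice of 4 h, 3 T cell genes fell and 0 rose, 1 NK and cytotoxic cell gene rose and 1 fell, and P2ry12 rose (2.25, adjusted p = 0.0273). Among the monocyte genes 3 fell and 1 rose in these serum mice, and among the dendritic cell genes 2 fell and 0 rose. Over all clones, 11.8% were called at 4 h in OA mice and 22.5% in serum mice. Late in OA mice, where Cd74 fell, 1 B cell gene of 16 rose, Cd24a (1.09, adjusted p = 0.0347), and 1 fell, Cd37 (-0.72, adjusted p = 0.00448), with a median of 0.00. The summed B cell signal was 14.04 to 14.65 in late OA mice, against 13.52 to 14.32 in early ones. The mean log2 signal of the same genes was 9.84 to 10.2 in late OA mice, against 9.47 to 10.2 in early ones. In the same contrast 5 of 15 red cell genes rose, among them the haem synthesis gene Alas2 (1.43, adjusted p = 0.0298), and 3 of 8 neutrophil genes fell. Late in OA mice 8.23% of all clones were called, and no list count was tested against these shares. The part of cell makeup in the class II results was not tested.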

How the data were processed

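Per the labels' protocols, blood RNA was amplified to antisense RNA, labelled with a radioactive nucleotide and hybridised to nylon filters. That text names lung where the sample labels name peripheral blood mononuclear cells, and whether mononuclear cells were isolated is not settled. The deposited scanner tables give the linear intensity of every spot, and image quantification is not given in the sources used here. A quantile table deposited by the authors holds log2 values of the same arrays. Intensities of the 7771 clone spots (of 9984) were quantile-normalised, turned to log2, averaged per clone and per mouse, and fitted in R 4.3.3 with limma 3.58.1 (12 groups, lmFit, eBayes), with Benjamini-Hochberg adjustment over 7739 clones and a threshold of 0.05. No background was subtracted. Background was the median of the empty spots plus 2.6 robust SDs. Each contrast weighted times equally. Correlations used Python 3.11.15. The fit was tested on simulated data. The mouse was the replicate, and the number of mice (1 or 2 in each serum group) limits the precision. No label pairs mice across groups by number. Genes named were all members, their 5 nearest genes and the called genes and defining markers of the marker lists, of which a few are not reported here. The members, gene lists and tests were chosen with earlier results of these data known. Alternatives tried were median scaling, the authors' table, array weights, the mouse as a random block, a replicate block, a filter on dim clones or spots of quality score 0, other clones, groups fitted alone, and leaving out each time or mouse; leaving out the 7 mice that stand apart was added after seeing the data.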

Additional observations from a re-analysis of the deposited data

Results flagged for a closer look

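Of 42 gene and group sets of 4 to 10 mice, 7 held a mouse far from the rest of its group, where chance gives about 1 in 20. In 4 of them the mouse was 1 of the 7 that stand apart and lay low. H2-Eb1 was at 8.88 in OA 3 h mouse 7, with the other mice of the group at 11.85 to 12.42, and at 9.75 in OA 18 h mouse 2, with the others at 12.34 to 12.77. H2-DMa was at 7.71 in that 18 h mouse, with the others at 9 to 9.13. Cd86 was at 6.81 in OA 4 h mouse 3, with the others at 7.05 to 7.09, none of them above background. H2-Aa was at 10.00 in OA 4 h mouse 2, which also stands apart, above the 9.25 to 9.35 of its group, while the same mouse was low in H2-Eb1 at 8.43. H2-Oa was at 7.84 in OA 1 h mouse 3, below the 8.90 to 9.01 of the others, and H2-DMa at 8.46 in OA 1 h mouse 2, below 8.82 to 8.89.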

How the results depend on the processing

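Of 1479 values of single genes under the alternatives, 1406 kept their direction and their side of the threshold, 36 lost and 22 gained a call and 15 changed sign. Of the 1479, 1095 came from leaving out 1 mouse, often one outside the contrast, which leaves the difference itself unchanged. Among the 384 others, 354 kept both. This share therefore says little of the single calls above. Median scaling, the authors' quantile table, groups fitted alone and leaving out 18 h changed no call. Mice of the same number were no more alike at the median: 76 same-numbered pairs had a median r of 0 (-0.56 to 0.63), against 0.01 for other pairs. Of 36 mice, 9 lay closest to their own number. How many would do so by chance was not computed, so pairing by number is not settled. With the replicate block, OA minus serum at 4 h called 0 clones, serum late minus early 0, and the Cd74 difference between treatments, late minus early, was 0.10. That last value was 0.05 without 1.5 h and -0.39 to 0.25 on leaving out single mice. H2-Oa late minus early in OA mice was 0.08 without 1 h, 0.06 without 24 h, 0.03 without the mice apart and 0.01 over the mean of clones, and -0.19 to 0.03 on leaving out single mice. H2-Eb1 late minus early in serum mice was 0.16 without the mice apart and -1.30 to 0.16 on leaving out single mice. The cause was not tested.

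For OA 4 h minus other OA times, with 911 clones and 3 genes, the clones called were 288 without spots of quality score 0, 473 without 1 h, 327 without 1.5 h and 422 without the mice apart. The genes called were 1 without 1 h, 0 without 1.5 h and 1 without the mice apart. Leaving out single mice gave 64 (without OA 4 h mouse 3) to 1461 clones and 0 to 4 genes. For OA late minus early, with 637 clones and 2 genes, the clones were 956 with the mouse as a random block, 1789 with array weights, 186 without quality 0, 1 without 1.5 h, 1298 without 18 h, 8 without 24 h and 1363 without the mice apart. Genes called were 1 without dim clones, 1 without quality 0 and 0 without 1 h, 1.5 h or 24 h. Leaving out single mice gave 256 (without OA 1 h mouse 5) to 912 clones and 0 to 2 genes. For serum 4 h, with 1744 clones, they were 240 with array weights, 433 for the groups alone, 238 without quality 0 and 1105 without 1 h, and 11 (without serum 4 h mouse 1) to 2184 clones and 0 to 4 genes over single mice. For OA minus serum at 4 h, with 4 clones, they were 0 with the random block or the groups alone, 1 with array weights, median scaling or without 1.5 h or 18 h, 2 without dim clones or quality 0, and 1 to 764 clones and 0 to 1 gene over single mice. For serum late minus early, with 2 clones, they were 1 with the random block or without 18 h, 0 with array weights, the groups alone, median scaling, or without quality 0, 1.5 h, 24 h or the mice apart, and 0 to 6 over single mice. OA minus serum over all times gave 0 to 2. Cd86, H2-DMa and H2-Ob near background limit what their levels can show.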
